A study of Bombus lucorum with 81 samples.

Results

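The Watzmann bees are the 42 of 81 Bombus lucorum workers whose sample titles start with WM_, and they came from 9 of the 16 sites of the study, between 766 and 1930 m. B. lucorum is a wild bumblebee of Europe, and the study asked how gene expression of foraging workers differs along a mountain slope of the German Alps and between grazed and ungrazed grassland. Every bee gave 1 poly-A RNA library from thorax and abdomen, without head, legs, wings and gut, and no bee was treated. Expression of each gene was fitted against elevation as a straight line, so that a slope of 1 means a doubling over 1000 m.

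The site names form 2 series. The Wma series held 20 bees from 4 sites at 766, 1245, 1423 and 1930 m (Wma1, Wma2, Wma3 and Wma6), with 5 bees each. The Wmb series held 22 bees from 5 sites at 960, 1140, 1420, 1655 and 1813 m (Wmb1 to Wmb5), with 5 bees each except 2 bees at Wmb5. The labels do not say what sets the series apart. Mean annual temperature was 8.58 °C at the lowest site and 4.58 °C at the highest one, and its correlation with elevation over the 9 sites was -0.99, so that elevation and temperature cannot be told apart. The sample table of the study marks the 7 sites up to 1655 m, with 35 bees, as grazed and both sites above, with 7 bees, as ungrazed, so that the top of the slope and the absence of livestock cannot be told apart either. Plant cover, given in the labels, was 8.2 at the lowest and 2.25 at the highest site. Its correlation with elevation over the 9 sites was -0.65, that of plant richness -0.21, and their part was not tested. Age, colony and relatedness of the workers were unknown, bees of 1 site may share a colony, and p-values over bees then cover the spread between these bees only. In RNA of thorax and abdomen together, fewer cells of a type and less RNA per cell cannot be told apart.

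Bumblebees warm their flight muscles before and during foraging by burning sugar, so that glycolysis, the TCA cycle and the respiratory chain are in heavy use in the thorax, and colder air raises the cost of flight. Heat shock proteins are chaperones that hold or refold other proteins, and many of them are induced by heat, cold or exercise. Thinner and colder air, shorter seasons and other flowers come together on a mountain slope.

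The libraries held between 15700800 and 33784300 counted reads, and the total had a correlation of 0.07 with elevation over the bees. The study reports a wide range of RNA integrity over its samples, and the part of RNA quality in the slopes was not tested. Although the gut had been removed, genes with a gut-type name (peritrophin, chymotrypsin, trypsin and mucin, 18 genes) had reads. The 16 of them that passed the filter on low counts summed to between 9.95 CPM (counts-per-million of a library) in 1 bee of Wma1 and 52029 CPM in 1 bee of Wma6. A score over the 7 peritrophins and chymotrypsins among the 18 genes was above 0 in all 5 bees of Wma2, in 4 of the 5 bees of Wma6, in 3 bees of Wma3 and in 2 bees of Wma1, against 1 or 2 bees of each Wmb site, and its correlation with elevation was 0.21. The odorant receptor gene LOC100648059, the only one of 5 head-type genes that passed this filter, lay near 0 (a site mean of at most 0.854 CPM for this 1 gene). The 14 tested muscle genes together reached a site mean of at least 3635 CPM.

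Over the 42 bees, 1 of 9467 genes rose with elevation (0.0106%; p under 0.05 after Benjamini-Hochberg adjustment over all tested genes and a slope of at least 0.5), and 0 genes fell (0%), by the quasi-likelihood F test of edgeR. At an unadjusted p under 0.05 there were 401 genes with a slope above 0 (4.24%) and 510 genes with a slope below 0 (5.39%). The Wald test of DESeq2 called 0 genes rising and 1 gene falling. The median slope of all genes was -0.02, 46.2% of them had a slope above 0, and the median standard error of a slope was 0.20. No gene was called for a curved course over the 9 sites, with 0 of 9582 genes at an adjusted p under 0.05 (0%) and 996 genes (10.4%) at an unadjusted p under 0.05.

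The gene that rose, LOC100644527, is named trypsin 3A1, a serine protease of the kind that digests protein in the gut. It had 0.188, 0.209, 0.279, 0.30 and 0.491 CPM in the bees at 766 m and 0.842, 2.06, 2.18, 4.71 and 188 CPM in the bees at 1930 m. Among all 42 bees the median was 0.835 CPM and the second highest value 5.25 CPM, so that 1 bee held 78.6% of the summed CPM of the gene. Its slope was 4.92 ± 0.73 (SE, n = 42; adjusted p = 0.000317 with edgeR), 1.20 without that bee and 0.73 without the 5 bees of its site, and neither of these values passed the threshold. The remaining bees of the highest site lay above all 5 bees of the lowest site, but within the range of the sites at 960 to 1423 m. Of the 16 tested gut-type genes 12 had a slope above 0 (46.2% of all genes did), with a median of 0.59. The summed level of the 16 was between 9.95 and 21903 CPM at 766 m and between 212 and 52029 CPM at 1930 m. In addition to the trypsin, the mucin-3B-like gene LOC100647739 passed an unadjusted p under 0.05. Mucins are glycoproteins of mucus, and this one had a slope of 1.83 ± 0.52 and site means of at most 0.647 CPM below 1930 m, against 2.03 ± 2.08 CPM (SD, n = 5) at 1930 m. The bee with 188 CPM of the trypsin had a gut-type score of -3.80, and the remaining bees of its site had 3.54 to 4.04. With this score as a covariate 1 gene rose and 0 fell over the 42 bees. At an unadjusted p under 0.05 there were then 391 rising and 448 falling genes (edgeR). Apart from this covariate, the part of gut tissue in these values was not tested.

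The other genes described along the whole slope did not pass the adjusted threshold and were taken by the smallest p. LOC100647853 encodes GTP-binding protein 2, a member of a GTPase family linked to ribosome rescue in mammals. Its site means were 58.7, 129, 98.4, 107, 112, 112, 138, 151 and 163 CPM in order of elevation, and all 5 bees at 766 m (47.9 to 68.1 CPM) lay below all 5 bees at 1930 m (117 to 259.5 CPM). The slope was 0.86 ± 0.22 (adjusted p = 0.35, edgeR). LOC100644143, named as an inorganic phosphate cotransporter and taken from the lysosome list, had 184 ± 72.2 CPM at 766 m and 394 ± 104 CPM at 1930 m, with a slope of 0.82 ± 0.23. Without a name in the tables used here were LOC100643332 (slope 0.50 ± 0.14, 339 to 435 CPM at 766 m and 434 to 793 CPM at 1930 m) and LOC100644008 (slope 0.68 ± 0.19, 32.9 to 49.6 CPM at 766 m and 66.3 to 103 CPM at 1930 m). The bees of the lowest and highest site did not overlap for LOC100644008 and overlapped at 434 to 435 CPM for LOC100643332. LOC105667206 had 16.1 CPM in 1 bee of Wma6 against at most 1.05 CPM in all others, and its slope was 2.16 ± 0.48, and -0.09 without the bees of Wma6.

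**Figure D1:**
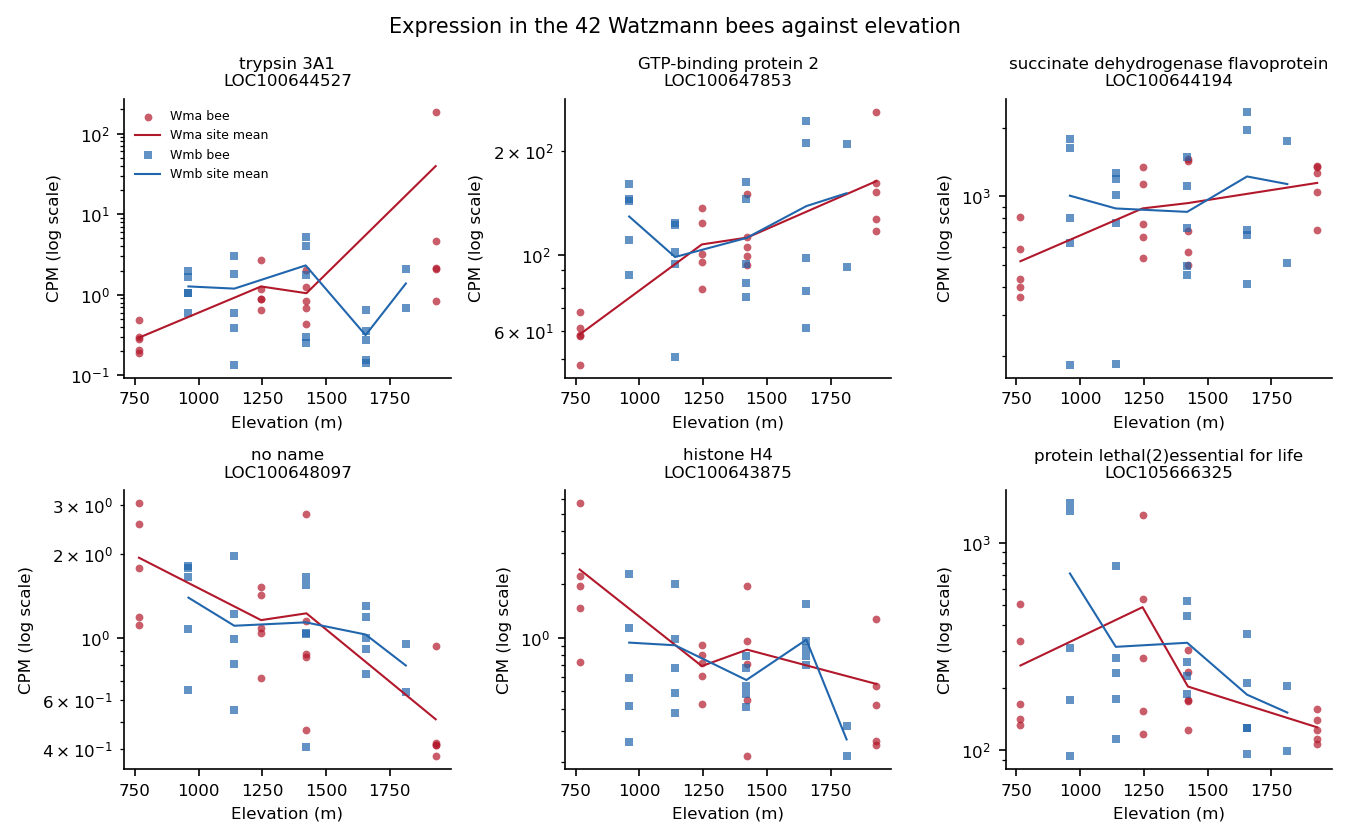
CPM on a log axis (vertical) in each of the 42 Watzmann bees against elevation in m (horizontal) for 6 genes. Red circles are Wma bees, blue squares Wmb bees and lines join the site means; trypsin 3A1 stands on 1 bee at 188 CPM, while the site means of LOC100648097 are highest at 766 m and lowest at 1930 m and those of succinate dehydrogenase are lowest at 766 m.

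Among the genes with slopes below 0, LOC100648097, which has no name in the tables used here, had the smallest p. The bees at 766 m had 1.12, 1.19, 1.78, 2.58 and 3.05 CPM, and those at 1930 m had 0.377, 0.413, 0.413, 0.421 and 0.936 CPM. The groups did not overlap, and the 7 sites between them had means of 0.798 to 1.40 CPM. The slope was -1.22 ± 0.28 (adjusted p = 0.22, edgeR). Histone H4 (LOC100643875), a core protein of the nucleosome, had 2.42 ± 1.93 CPM at 766 m and 0.551 ± 0.426 CPM at 1930 m, with a slope of -1.49 ± 0.37, and -0.68 without Wma1. Its median over the 42 bees was 0.706 CPM. LOC100648319 had 162 ± 72.8 CPM at Wma1, above every other site mean (42.9 to 94.6 CPM), and its slope of -1.19 ± 0.28 came to -0.48 without that site. LOC110119568 and LOC100642497 had 1 bee each at 766 m, with 5.40 and 10.7 CPM, that lay far above all other bees of the slope, and slopes of -1.33 and -2.33.

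Elevation is a property of the site, so that the 9 site means of log2 CPM were also paired with the 9 elevations in all 362880 ways. Over the 102 genes tested in this way, 2 passed an adjusted p under 0.05 by Pearson's r in this exact permutation test (2-sided). LOC100648097 had r = -0.90 (p = 0.000223, adjusted p = 0.0132, exact permutation) and rho = -0.90 (p = 0.00203, adjusted p = 0.10, exact permutation). The succinate dehydrogenase flavoprotein subunit (LOC100644194), which links the TCA cycle with the respiratory chain, had r = 0.90 (p = 0.000259, adjusted p = 0.0132, exact permutation) and rho = 0.95 (p = 0.000353, adjusted p = 0.036, exact permutation). Without the sites at 766 and 1930 m, r was -0.86 for LOC100648097 and 0.83 for succinate dehydrogenase. Site means of succinate dehydrogenase were 519 CPM at 766 m, 855 to 1007 CPM at the 5 sites from 960 to 1423 m and 1133 to 1224 CPM at the 3 sites above. The bees spread far more than the sites, between 182 and 2360 CPM, and over bees the slope was 0.71 ± 0.34 (adjusted p = 0.51, edgeR). The 102 genes had been picked by their p over the same bees or from lists, so that these values are not independent of the fit over bees.

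Slopes of the heat shock genes lay below 0, and no single gene passed the adjusted threshold. Of 11 genes so named, 10 were tested. Their summed level was 7257 ± 2074 CPM at 766 m, 12230 ± 2564 CPM at 960 m and 7715 ± 1224 CPM at 1930 m (SD, n = 5 each), so that the sum, most of it from LOC100652068, was not lower at the top than at the bottom. All 10 slopes were below 0, where 46.2% of all genes had a slope above 0. The median of the 10 was -1.15 against -0.02 over all genes, and 6 of the 10 had an unadjusted p under 0.05 (edgeR) beside 5.39% of all genes in this direction. With the site as a random block in limma 2 of the 10 had one, beside 161 falling genes over all. With counts summed per site 3 of 11 had one, beside 171. None was called by edgeR, and DESeq2 called 1, the small heat shock gene LOC105666325. Within the 7 grazed sites alone the median was -0.54 and 2 of 11 slopes were above 0. There 0 of these genes had an unadjusted p under 0.05, beside 167 rising and 191 falling genes over all. Without the bees of Wma6 the median was -0.68 and 2 genes had one, beside 158 falling genes over all.

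Proteins named lethal(2)essential for life are small heat shock proteins of the alpha-crystallin type, which bind unfolding proteins. LOC105666325 had 93.6, 175, 312, 1422 and 1549 CPM in the bees at 960 m, 120.0, 155, 278, 535 and 1356 CPM in those at 1245 m and 108, 114, 125, 140.2 and 159 CPM in those at 1930 m. The 3 highest of the 42 bees came from 960 and 1245 m, and the bees of the highest site were alike and lay within the lower part of the range of the other sites. The slope was -1.73 ± 0.49 (adjusted p = 0.38, edgeR), and it was -1.11 along Wma and -2.38 along Wmb. LOC105666322 (-1.22 ± 0.51) and LOC110119847 (-1.46 ± 0.64) reached 341 and 19.2 CPM in the same bee at 766 m, and had at most 44.0 and 1.87 CPM at 1930 m. The most abundant gene of the group, LOC100652068, had site means of 4971 to 8982 CPM in no order of elevation and a slope of -0.16 ± 0.26. LOC100651433 (-1.27 ± 0.93) and LOC105667104 (-0.62 ± 0.46) had an unadjusted p above 0.05.

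Hsc70-4 (LOC100650203), named as a cognate of the 70 kDa chaperones, had the steepest slope of the group with -2.46 ± 0.78 (adjusted p = 0.40, edgeR). It had 1.02, 1.19, 6.58, 6.87 and 16.6 CPM at 766 m and 0.335, 0.413, 0.619, 0.842 and 0.867 CPM at 1930 m. The bees of both sites did not overlap, although 1 bee at 960 m, with 43.7 CPM, held 29.3% of the summed CPM. Hsp83 (LOC100645819), the insect form of Hsp90, had its highest site mean in the middle, with 1149 ± 933 CPM at 1245 m (SD, n = 5), and 414 ± 233 CPM at 766 m and 218 ± 62.4 CPM at 1930 m. Its slope was -1.08 ± 0.50, and -0.56 without Wma6. The mitochondrial co-chaperonin Hsp10 (LOC100646003) had 155 to 277 CPM at 766 m and 48.4 to 149 CPM at 1930 m, without overlap, and a slope of -0.86 ± 0.31. The mitochondrial chaperone cognate 5 (LOC100644048) had a slope of -0.13 ± 0.20. The 5 dnaJ genes, co-chaperones of the 70 kDa proteins, had slopes between -0.34 and 0.57 with a median of 0.13.

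The Hintersee bees, 24 untreated workers from 4 sites at 987 to 1808 m on another slope, were prepared in the same way. Grazing, sampling temperature and plant cover of the sites did not enter the comparison of both slopes, and their part in it was not tested. Watzmann and Hintersee slopes of the heat shock genes differed in sign for 8 of the 10 genes, with medians of -1.15 along the Watzmann and 1.09 along the Hintersee sites. The difference had an unadjusted p under 0.05 in 6 of 10 genes and an adjusted p under 0.05 in 0, where 11.5% of all genes had the first and 0.259% the second. Hsp83 had a slope of -1.08 ± 0.50 along the Watzmann and 2.00 ± 0.66 along the Hintersee sites (difference -3.08, adjusted p = 0.0785, edgeR). Hsc70-4 had slopes of -2.46 and -1.85. Both ends of the Hintersee slope lie inside the Watzmann range, and Hsp83 had 203 ± 127 CPM at 987 m (n = 5) and 695 ± 507 CPM at 1808 m (n = 9) there.

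**Figure D2:**
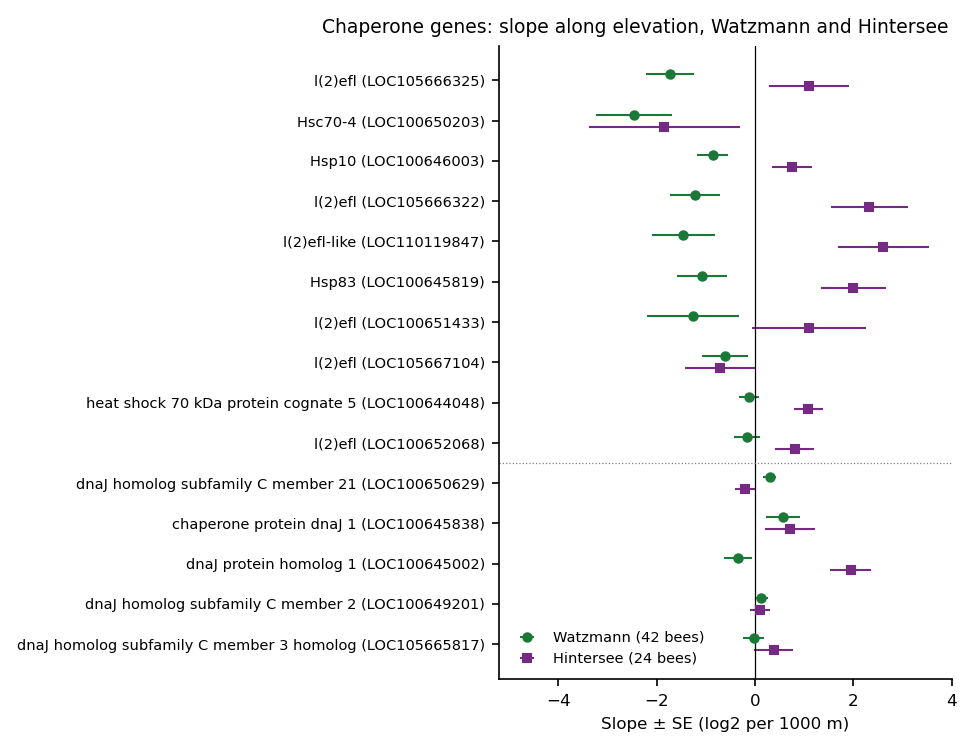
Slopes with standard errors (horizontal, log2 per 1000 m) of 10 heat shock and 5 dnaJ genes (down the page, split by the dotted line) in 42 Watzmann bees (green circles, above) and 24 Hintersee bees (purple squares, below). All 10 heat shock slopes lie below 0 along the Watzmann and 8 of 10 lie above 0 along the Hintersee sites.

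Over all genes, 25 of 9663 differed in slope between Watzmann and Hintersee bees (0.259%), and 1108 (11.5%) at an unadjusted p under 0.05. With the site as a random block in limma 0 were called, with 545 at an unadjusted p under 0.05, so that no call given here for this difference held in that fit. Of the 24 in the Watzmann table, 19 had the lower slope along the Watzmann and 22 had opposite signs. The dnaJ protein homolog 1 (LOC100645002), a co-chaperone of the Hsp40 type, had 237 ± 103 CPM at 766 m, 503 ± 139 CPM at 1423 m and 235 ± 47.5 CPM at 1930 m on the Watzmann (SD, n = 5 each), against 208 ± 82.3 CPM at 987 m and 649 ± 332 CPM at 1808 m on the Hintersee slope. The slopes were -0.34 ± 0.28 and 1.95 ± 0.41 (difference -2.29, adjusted p = 0.029, edgeR). Histone H4 (LOC100643875) differed by -3.60 (adjusted p = 0.046) and histone H3 (LOC105665767) by -2.80 (adjusted p = 0.046). The upper Hintersee mean of histone H4, 2.23 ± 4.10 CPM (SD, n = 9), held 1 bee with 13 CPM, against a median of 0.780 CPM. Cytochrome P450 315a1 (LOC100644009), a mitochondrial enzyme of ecdysteroid synthesis in insects, had slopes of -0.09 and 4.27. The meiosis gene mutS homolog 4 (LOC100646119) had -0.57 and -4.64.

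Without names, LOC100649377, LOC100645524 and LOC100642940 had the smallest p for this difference (adjusted p = 0.00892 each). LOC100645524 had 982 ± 666 CPM at 766 m, 1792 ± 594 CPM at 1423 m and 372 ± 157 CPM at 1930 m on the Watzmann, against 328 ± 211 CPM at 987 m and 2277 ± 1074 CPM at 1808 m on the Hintersee slope. Its slopes were -1.59 and 3.04. LOC100645781 had slopes of -0.37 and 4.31, with 1 bee of 80.7 CPM at the upper Hintersee site against a site median of 2.15 CPM, and its difference of -4.68 came to -1.16 without that site. LOC100652142 had slopes of 0.01 and -0.84. The count of 25 genes came to 0 without the Watzmann site Wma6 (1023 at an unadjusted p under 0.05), to 0 without the Hintersee site H6 at 1808 m (185), and to 86 without Wma1.

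Most genes of glycolysis and the TCA cycle had slopes above 0 along the Watzmann, and none passed the adjusted threshold. The lists for these pathways are genes that the study picked on these bees, so that their direction is not independent evidence. All 23 glycolysis genes had a slope above 0 (46.2% of all genes did), with a median of 0.51 and 11 genes at an unadjusted p under 0.05, beside 4.24% of all genes in this direction. Their summed level was 16152 ± 1973 CPM at 766 m and 38361 ± 4537 CPM at 1930 m (SD, n = 5 each), with no overlap, while the 7 sites between had means of 24308 to 32090 CPM in no order. Of 26 TCA cycle genes 22 were above 0, with a median of 0.52 and 6 genes at an unadjusted p under 0.05 with a slope above 0, and 1 with a slope below 0. Without Wma1 neither list had a gene at an unadjusted p under 0.05 with a slope above 0, beside 431 rising genes over all. The succinyltransferase of the 2-oxoglutarate dehydrogenase complex (LOC100651798) had 117 to 173 CPM at 766 m and 213 to 336 CPM at 1930 m, and a slope of 0.52 ± 0.24. Pyruvate dehydrogenase E1 beta (LOC100645621), which feeds pyruvate into the cycle, had 352 ± 66.2 CPM at 766 m and 865 ± 152 CPM at 1930 m, and a slope of 0.61 ± 0.28. The bees at 766 m were low and those at 960 m, the next site, varied between bees up to the level of the top: the TCA cycle genes summed to 9365 ± 2343 CPM at 766 m, 23747 ± 12429 CPM at 960 m and 25015 ± 3659 CPM at 1930 m.

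The oxidative phosphorylation, lysosome, peroxisome, N-glycan and aminoacyl-tRNA lists were also picked by the study on these bees. The 30 oxidative phosphorylation genes had a median slope of 0.08 with 20 above 0 (46.2% of all genes were) and 0 at an unadjusted p under 0.05. Their median was -0.42 without Wma1 and 0.51 without Wmb1. The alpha subunit of ATP synthase (LOC100645715) had 0.46 ± 0.22. Of 50 lysosome genes, which break down material taken up by cells, 43 were above 0 with a median of 0.29. In this direction 9 genes passed an unadjusted p under 0.05, beside 4.24% of all genes. Among the 9 was the V-type proton ATPase subunit LOC100646695 (0.42 ± 0.16), which acidifies lysosomes. Within the grazed sites alone the lysosome median was -0.06 and the glycolysis median 0.43. There 0 genes of either list had an unadjusted p under 0.05, beside 167 rising and 191 falling genes over all. Peroxisome genes (31) had a median of 0.36, with 2 genes at an unadjusted p under 0.05 and a slope above 0, beside 4.24% of all genes. N-glycan genes (29) had a median of -0.08 and aminoacyl-tRNA genes (33) a median of -0.09, against -0.02 over all genes. Lysosome and glycolysis medians were -0.01 and 0.24 at their lowest when 1 site was left out, the first without Wma6 and the second without Wma1.

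The 21 axoneme and meiosis genes build the core of cilia and sperm tails or act in germ cells. Of the 21, 18 had a slope below 0 (median -0.47), where 46.2% of all genes had a slope above 0. Among the 18, 6 had an unadjusted p under 0.05, beside 5.39% of all genes in this direction. Without Wma1 the median was -0.18 and 1 of 19 genes had one, beside 542 falling genes over all. Without Wma6 it was -0.21 with 1 of 21, beside 158. Axonemal dynein heavy chain 5 (LOC100648383), a motor protein, had 1.97 to 11.1 CPM at 766 m and 0.500 to 4.29 CPM at all other sites, and its slope of -1.24 ± 0.36 was 0.02 without the bees at 766 m. Tektin-2 (LOC100645005), a filament protein of the axoneme, had -0.67 ± 0.26. Fat body genes varied by orders of magnitude between bees of 1 site. Hexamerin (LOC100650380), a storage protein, had between 2.67 and 2248 CPM at 766 m, between 1.97 and 4498 CPM at 1140 m and between 0.676 and 1.31 CPM at 1930 m, and a slope of -3.69 ± 1.81 (adjusted p = 0.52, edgeR). Vitellogenin (LOC100649251), the yolk protein precursor, had site medians of 10.7 to 51.3 CPM and a slope of -1.22 ± 0.63. Of the remaining lists, P450 (13 genes), lipid (22), immune (11), ribosomal (13), antioxidant (3) and venom gland genes (8) had 1, 1, 1, 2, 1 and 2 members at an unadjusted p under 0.05, and the 7 cuticle genes had 0, beside 9.62% of all genes in both directions. The slopes of these members were above 0 for the lipid and venom gland genes and below 0 for the others. Lysozyme 2 (LOC100649284), which cuts bacterial cell walls, had -0.78 ± 0.33, and the desaturase LOC100650274, of the kind that places double bonds in fatty acids, had 1.49 ± 0.54.

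Over bees, the slope differed between Wma and Wmb in 650 of 9582 genes (6.78%), 318 with the higher slope along Wma (3.32%) and 332 with the lower one (3.46%), and 2421 genes (25.3%) had an unadjusted p under 0.05. With counts summed per site 0 genes differed (1161 at an unadjusted p under 0.05), and with the site as a random block in limma 1 did (1751). The count of called genes therefore did not hold with sites taken into account. Along the 4 Wma sites alone, 526 of 9411 genes rose (5.59%) and 516 fell (5.48%), and with the site as a random block in limma 156 rose and 119 fell. Along the 5 Wmb sites alone edgeR called 0 rising and 0 falling of 9401 genes (0% each), with 325 (3.46%) and 457 (4.86%) at an unadjusted p under 0.05. Of the 1040 genes called along Wma and fitted along Wmb, 839 (80.7%) had the opposite sign along Wmb, where 62.2% of all genes had opposite signs. Without Wma1 and without Wma6 the fit along Wma called 0 genes in both directions, with 808 and 904 rising and 854 and 919 falling genes at an unadjusted p under 0.05, so that the counts rest on the ends of a series with 4 sites.

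**Figure D3:**
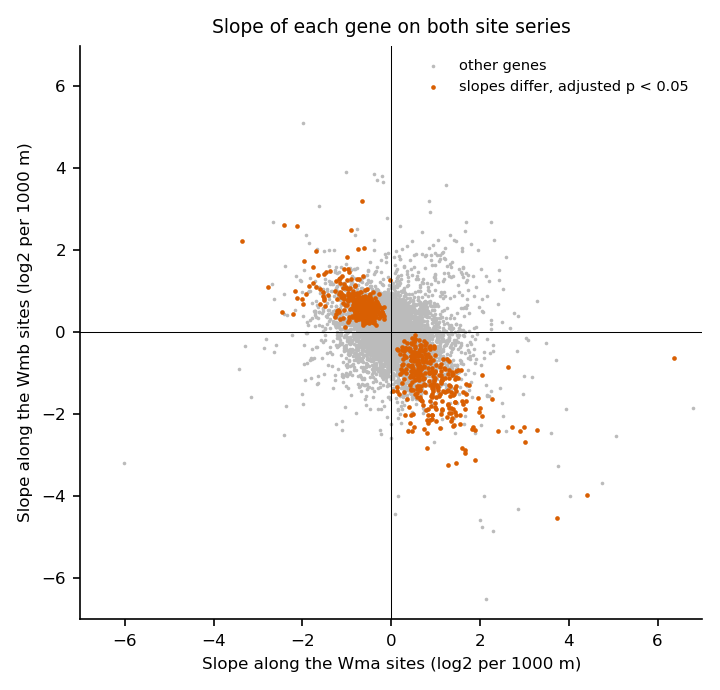
Slope of each of 9344 genes along the Wma sites (horizontal) against its slope along the Wmb sites (vertical), both in log2 per 1000 m. Orange points are the 643 plotted genes whose slopes differed at an adjusted p under 0.05, and all of them lie in the fields of opposite sign; 2 genes lie outside the axes.

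The study classes the bees of Wma1 as caught at high and those of Wmb1 as caught at low sampling temperature, and the part of that in the difference was not tested. The count of 650 genes came to 0 without Wma1 (1316 at an unadjusted p under 0.05), 1 without Wmb1 (987), 26 without Wma6 (2026) and 0 without Wmb4 (1623). It was 224 in the sites up to 1423 m, 0 with the counts summed per site (1161 at an unadjusted p under 0.05) and 1 with the site as a random block in limma (1751). With the gut-type score as a covariate it was 678. These alternatives were chosen after seeing the data, apart from the limit at 1423 m.

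Most muscle genes had slopes above 0 along Wma and below 0 along Wmb, and their summed site means above Wmb1 were in no order of elevation along Wmb. Gene names were read from tables of the study that include its called genes. Lists by name, here muscle and below P450, are therefore not independent of what the study found in these bees. Of 14 tested, 7 rose along Wma, beside 5.59% of all genes, and 13 had slopes above 0 (median 0.81), beside 48.4% of all genes. Along Wmb 3 were above 0, beside 52.3% of all genes, the median was -1.83 and 9 had an unadjusted p under 0.05 with a slope below 0, beside 4.86% of all genes. In 7 genes the slope was higher along Wma at an adjusted p under 0.05, beside 3.32% of all genes. With the site as a random block 3 of the 14 were called rising along Wma, beside 156 of 9411 genes. The genes named from here on for the difference between both series were chosen after their values were seen. Tropomyosin-1 (LOC100646315), which lies along the actin filament, had 134, 165, 176, 197 and 294 CPM at Wma1 (766 m) and 785, 1066, 1180, 2007 and 6495 CPM at Wmb1 (960 m). It had 403 to 876 CPM at the top of Wma (1930 m), and 239 and 1674 CPM at the top of Wmb (1813 m). The lowest and highest site did not overlap along Wma, and all 5 bees of Wmb1 lay above all bees of Wma1. The slope was 1.54 ± 0.32 along Wma and -2.24 ± 0.82 along Wmb (difference 3.77 ± 0.88, adjusted p = 0.0191, edgeR).

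An actin gene (LOC100648427), of the filament that myosin pulls, had 183 to 324 CPM at Wma1 and 1194 to 12240 CPM at Wmb1, and slopes of 1.6 ± 0.38 along Wma and -2.81 ± 0.91 along Wmb (adjusted p of the difference 0.0191). Troponin I (LOC100642480) and troponin C (LOC100647229), parts of the calcium switch of contraction, differed by 3.27 and 4.99. Tropomyosin (LOC100650354), the muscle LIM protein Mlp84B (LOC100646273) and muscle actin (LOC100648239) differed by 2.69, 2.85 and 2.87. Bee 5 of Wmb1, the smallest library with 15700800 counts, held the highest CPM of the 42 bees in tropomyosin-1 and in each of these genes. Its share of their summed CPM was between 13.8% (tropomyosin) and 25.3% (troponin C). At the sites above both lowest ones the muscle genes together had means of 5345, 6048 and 7349 CPM at Wma2, Wma3 and Wma6, and of 9362, 5515, 5428 and 9458 CPM at Wmb2 to Wmb5, against 3635 ± 592 CPM at Wma1 and 21325 ± 19715 CPM at Wmb1 (SD, n = 5 each). The 5 bees of Wmb1 had 7954 to 55902 CPM with a median of 12165 CPM, and all of them lay above all bees of Wma1 (3193 to 4314 CPM). A second troponin C gene (LOC105666319), with a slope of 2.14 along Wma and -1.28 along Wmb, had an adjusted p of 0.0504. Over all 42 bees the median slope of the muscle genes was -0.64, it was 0.54 without Wmb1, and with 1 bee left out it was 0.01 at its highest.

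**Figure D4:**
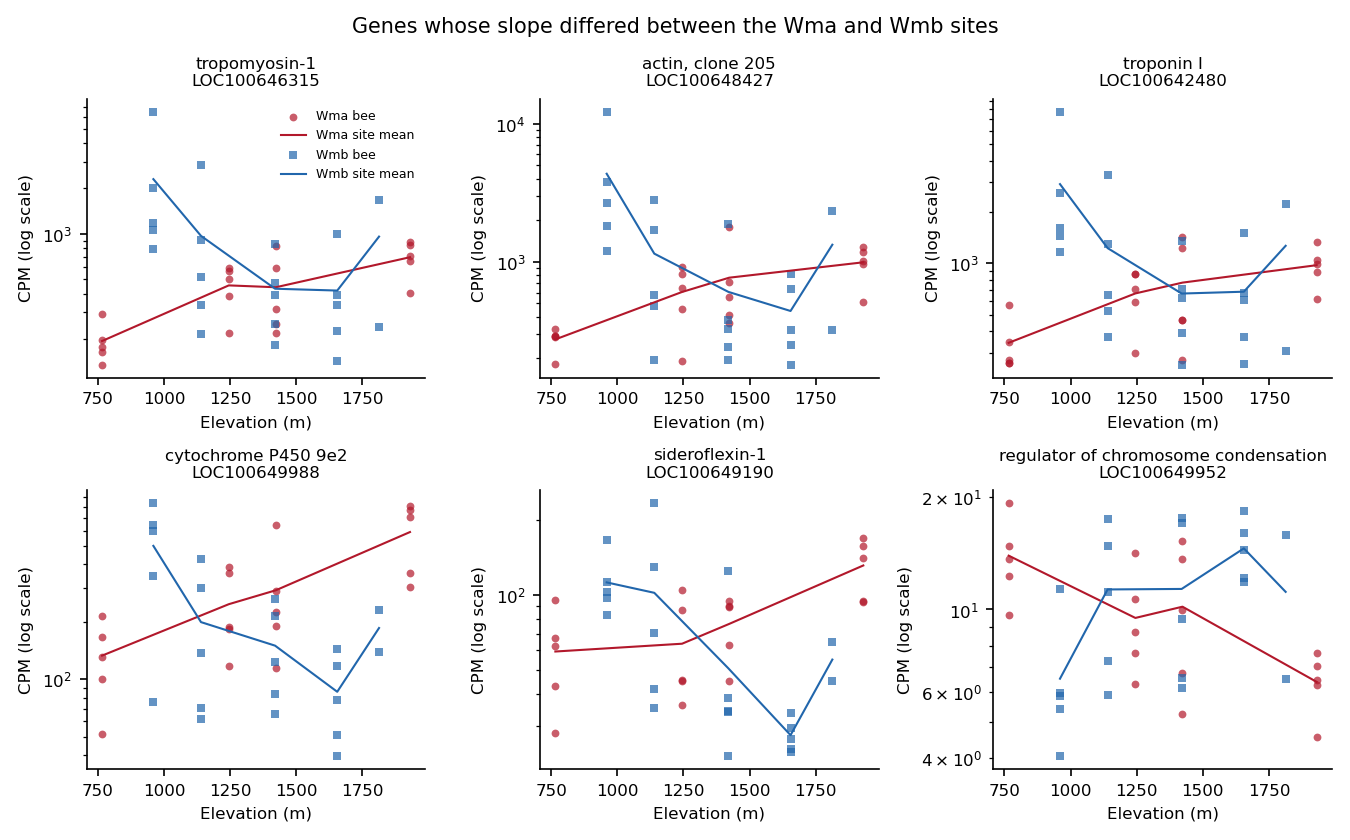
CPM on a log axis (vertical) against elevation in m (horizontal) in each bee for 6 genes whose slope differed between the site series. Wma bees (red circles) of the first 5 genes are lowest or near lowest at 766 m and highest at 1930 m, Wmb bees (blue squares) are high at 960 m, and the last gene has the reverse order; lines join the site means.

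Of 13 cytochrome P450 genes 4 rose along Wma (5.59% of all genes did), all of them named P450 9e2, and 5 had a higher slope along Wma than along Wmb (3.32% of all genes did). With the site as a random block 3 of the 13 were called rising along Wma, beside 156 of 9411 genes. P450 enzymes of this family oxidise plant compounds and pesticides in bees. LOC100649988 had 51.9 to 215 CPM at Wma1, with a median of 131 CPM, and 305, 361, 706, 771 and 809.9 CPM at Wma6, without overlap. Along Wmb it had 76.0, 346, 597, 641 and 838 CPM at Wmb1 and 39.3, 50.8, 77.7, 118 and 144 CPM at Wmb4. The slopes were 1.85 ± 0.37 and -2.31 ± 0.67 (difference 4.15 ± 0.77, adjusted p = 0.00582, edgeR). LOC100647368 and LOC100647566 differed by 2.92 and 2.41. Reads that fit several genes were counted as fractions, so that genes of the same name may share reads.

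Sideroflexin-1 (LOC100649190), a serine carrier of the mitochondrial membrane in mammals, had 28.1 to 95.9 CPM at Wma1 and 93.8 to 169 CPM at Wma6, against 82.9 to 165 CPM at Wmb1 and 23.5 to 33.8 CPM at Wmb4. Its slopes were 1.0 ± 0.27 and -2.16 ± 0.55 (difference 3.16 ± 0.60, adjusted p = 0.00703). The beta chain of methylcrotonoyl-CoA carboxylase (LOC100646006), an enzyme of leucine breakdown, the suppressor of lurcher protein 1 (LOC100651020), which assists glutamate receptors in worms, and the potassium channel subunit KChIP1 (LOC100644388) differed in the same direction by 2.7, 2.93 and 2.59. Among the genes with a lower slope along Wma than along Wmb, the regulator of chromosome condensation (LOC100649952), named after the protein that activates the GTPase Ran on chromatin, had 9.67 to 19.3 CPM at Wma1 and 4.56 to 7.62 CPM at Wma6, without overlap, against 4.04 to 11.3 CPM at Wmb1 and 11.9 to 18.4 CPM at Wmb4, without overlap. Its slopes were -0.92 ± 0.23 and 1.07 ± 0.45 (difference -2.0 ± 0.49, adjusted p = 0.0200). The RNA-binding protein hrp65 (LOC100644709), nucleolar GTP-binding protein 1 (LOC100646576), which acts in making the large ribosomal subunit in yeast, the KH domain RNA-binding protein LOC100647173 and the kinase activator GCN1 (LOC100651983), which senses stalled translation in yeast, differed by -1.24, -1.21, -1.02 and -1.10.

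Pathway lists split in the same way. All of them hold genes that the study picked on these bees, in part by comparing lowland bees of high and low sampling temperature. Their direction is therefore not independent evidence. Along Wma 17 of 23 glycolysis, 15 of 26 TCA cycle, 16 of 30 peroxisome and 15 of 50 lysosome genes rose, beside 5.59% of all genes, with medians of 0.96, 1.04, 0.79 and 0.58. With the site as a random block these counts were 3, 4, 3 and 4, beside 156 of 9411 genes. Along Wmb the medians were 0.01, -0.14, -0.67 and -0.05. Gut-type genes had medians of 1.30 along Wma and -0.63 along Wmb, and the lysosome genes had their highest summed levels at Wma6 (15633 ± 3597 CPM) and Wma2 (12475 ± 2387 CPM), the 2 sites with the highest mean gut-type sums (33283 and 35108 CPM). The part of gut tissue in these lists was not tested. The isocitrate dehydrogenase subunit LOC100646694, of the TCA cycle, had 144 to 221 CPM at Wma1 and 675 to 1173 CPM at Wma6, without overlap, against 308 to 1421 CPM at Wmb1 and 294 and 1326 CPM at Wmb5. The slope was 1.87 ± 0.49 along Wma and -0.41 ± 0.66 along Wmb, and the difference had an adjusted p of 0.0846 (edgeR). All 30 oxidative phosphorylation genes had slopes above 0 along Wma (median 0.80, 1 called) and below 0 along Wmb (median -0.76, 9 at an unadjusted p under 0.05, beside 4.86% of all genes). Of all genes 48.4% had a slope above 0 along Wma and 52.3% along Wmb. Heat shock genes, by contrast, had medians of -1.11 along Wma and -0.82 along Wmb, with 2 of 10 slopes above 0 in each series. Among them LOC105667104 differed, with slopes of 0.89 along Wma and -1.80 along Wmb (adjusted p of the difference 0.035, edgeR), and Wmb1 bees of 291 to 2671 CPM against 109.5 to 399 CPM at Wma1.

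**Figure D5:**
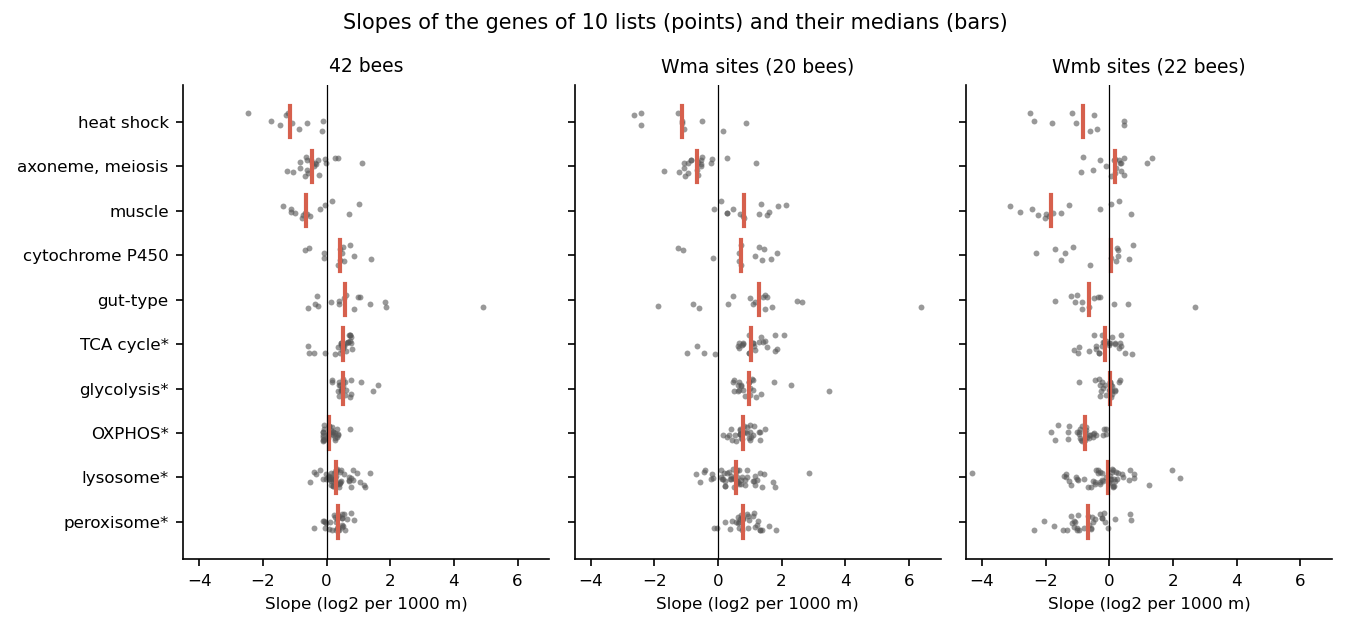
Slopes (horizontal, log2 per 1000 m) of the genes of 10 lists (down the page; pathway lists have a star) in all 42 Watzmann bees (left), the 20 Wma bees (middle) and the 22 Wmb bees (right). Each point is a gene and each red bar a median: heat shock genes lie mostly below 0 in all 3 panels, while muscle genes have a median of 0.81 along Wma and -1.83 along Wmb.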

How the data were processed

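RNA of 42 Watzmann workers was sequenced by the study. Per the submitters' processing notes and the methods, reads were split with bcl2fastq 2.20.0.422, trimmed with Cutadapt 2.5, aligned with STAR 2.7.2b to the B. terrestris assembly Bter_1.0, a related species, and counted with featureCounts 1.6.4 on exons of protein-coding genes in reverse-strand mode. The authors deposited estimated counts: a read with several matches was shared between them as fractions, and 28.7% of the values in these bees are not whole. No normalization had been applied. The table names chromosomes by accession, and no coordinates are given.

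Counts were rounded, filtered (filterByExpr) and scaled (TMM) with edgeR 4.0.16 in R 4.3.3, and elevation in km was tested with its quasi-likelihood F test, adjusted over all tested genes; calls needed an adjusted p under 0.05 and a slope of at least 0.5 log2 per 1000 m, apart from tests of differences and curvature, which used the adjusted p alone. Standard errors are the slope divided by the square root of F. CPM come from the scaled libraries, with a prior count of 2 on the log2 scale. The median library had 26856000 counts, and genes near the filter rest on few reads per bee. The fit was also run on counts simulated for each bee without a site effect. That run cannot judge p-values where bees share a site or a colony.

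Gene names came from descriptions in tables of the study and covered 17.5% of the tested genes, so that lists by name are partial. The tables include those of genes that the study called, and 201 of the 911 genes at an unadjusted p under 0.05 (edgeR) had a name. No gene was found by name for glycolysis enzymes, clock and odorant-binding proteins. Hypoxia and ovary lists held 1 gene each, with slopes of 0.21 and -0.36, and respiratory chain and TCA cycle enzymes by name had medians of 0.06 (10 genes) and 0.52 (6 genes). Grazing and sampling temperature classes came from the same tables.

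Genes named are the 5 with the smallest p in each direction, up to 4 of each list by smallest p, and up to 5 for the difference to the Hintersee bees, and all tested heat shock genes. Genes named for the difference between Wma and Wmb, and the P450, dnaJ, histone and mutS genes named for the Hintersee difference, were chosen after their values were seen. Members, lists and tests were chosen with earlier results of these data known. Alternatives were DESeq2 1.42.0 and its size factors, no filter, no minimum slope, limma 3.58.1 with site as random block, the bee number as block, site sums of counts, bees and sites left out, grazed sites, and the covariates series, temperature, gut-type score and length slope (log2 CPM on log2 exon length). The Wma and Wmb fits with their site block, the fit without both lowest sites, and the alternatives for both differences apart from 2 ranges of sites were added after seeing the data.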

Additional observations from a re-analysis of the deposited data

Results flagged for a closer look

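Single bees stood apart from the others of their site in 3 of 80 groups of 1 gene and 1 site, where 5% of such groups do so by chance: LOC105667206 in bee 1 of Wma6 (16.1 CPM, against a site median of 0.495 CPM), LOC100648097 in the same bee (0.936 CPM, against 0.413 CPM) and the succinate dehydrogenase subunit LOC100644194 in bee 5 of Wmb2 (184 CPM, against 1014 CPM).

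Over bees, slopes differed between the Wma and Wmb series in 650 genes, by the test of the interaction. With counts summed per site it was 0 genes, and with the site as random block 1 (1161 and 1751 at an unadjusted p under 0.05). Over bees, Wma minus Wmb was above 0 for tropomyosin-1 LOC100646315 (3.77), actin LOC100648427 (4.41), muscle actin LOC100648239 (2.87), troponin C LOC100647229 (4.99), troponin I LOC100642480 (3.27), tropomyosin LOC100650354 (2.69), Mlp84B LOC100646273 (2.85), the P450 genes LOC100649988 (4.15), LOC100647368 (2.92) and LOC100647566 (2.41), LOC100646006 (2.7), LOC100651020 (2.93), LOC100644388 (2.59) and sideroflexin-1 LOC100649190 (3.16). It was below 0 for LOC100644709 (-1.24), LOC100646576 (-1.21), LOC100647173 (-1.02), LOC100649952 (-2.0) and LOC100651983 (-1.10). All 19 kept their sign with each site left out in turn and were called in 5 of 9 such fits. The 19 had been picked for this difference in the same bees, so that the kept signs are not independent evidence.

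Slopes differed between Watzmann and Hintersee bees in 25 genes. Watzmann minus Hintersee was below 0 for LOC100649377 (-1.47), LOC100645524 (-4.63), LOC100642940 (-3.75), LOC100645781 (-4.68), P450 315a1 LOC100644009 (-4.35), dnaJ homolog 1 LOC100645002 (-2.29), histone H3 LOC105665767 (-2.80) and histone H4 LOC100643875 (-3.60), and above 0 for LOC100652142 (0.86) and mutS homolog 4 LOC100646119 (4.08). These 10 were called in 4 to 10 of the 13 fits that left out 1 site. They too had been picked for their difference in the same bees.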

How the results depend on the processing

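The trend called 1 rising and 0 falling genes. The rising count was 0 with the DESeq2 Wald test (1 falling), 2 without the filter (1 falling), and 0 with the site as random block in limma, with counts summed per site, within grazed sites, with the series or the length slope as covariate, without both lowest sites and along Wmb. With the bee number as a replicate block it was 0; the numbers only name bees, since same-numbered bees of different sites had a mean correlation of 0.0109 and 12 of 42 correlated best with a bee of their own number. Leaving out 1 bee gave 0 to 1 rising and 0 to 1 falling genes (0 rising without Wma6 replicate 1, 1 falling without Wma3 replicate 2), and leaving out 1 site 0 to 2 and 0 to 4, both highest without Wmb1. Along Wma the counts were 526 and 516, and with 1 Wma site left out 0 to 633 (615 without Wma3) and 0 to 691 (582 without Wma2); with the site as random block in limma 156 and 119 remained along Wma. Site means gave 2 genes by Pearson's r and 1 by Spearman's rho. The Wma and Wmb difference was called in 650 genes, 224 up to 1423 m, 0 summed per site, 1 with the site as random block (1751 at an unadjusted p under 0.05), and 0 to 1151 with 1 site left out, highest without Wmb5. The Hintersee difference was called in 25 genes, 186 with Watzmann sites of 960 to 1813 m, 0 with the site as random block (545 at an unadjusted p under 0.05), and 0 to 86 with 1 site left out. Heat shock genes with an unadjusted p under 0.05 were 6, and 2 with the site as random block, 3 summed per site, 0 within grazed sites and 3 along Wmb. The slope turned with 1 site left out for LOC105667206 (-0.087 to 2.99), mucin-3B-like LOC100647739 (-0.10 to 2.18), dynein LOC100648383 (-1.57 to 0.020), muscle actin LOC100648239 (-1.67 to 0.13) and LOC100652142 (-0.070 to 0.19, with 1 bee left out -0.03 to 0.06). The cause of these changes was not tested. The smallest library had 15700800 counts, a site had at most 5 bees and there were 9 elevations; which of these limits the results most was not tested.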
